A study of Mus musculus with 2 samples.

Results

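The 30 genes described here write, read, erase or act on the chromatin marks that precede the loss of histones in spermatids. They were followed through spermatogenesis in mice with and without a conditional Dot1l deletion directed at germ cells. They were chosen by symbol, and all 30 were found among the 32285 genes of the count matrices. In a round spermatid the DNA is still wound on histones. As the spermatid elongates, the histones become strongly acetylated, BRDT and a proteasome activator bind the acetylated tails, strand breaks relieve the supercoils, and transition proteins and then protamines take over the DNA. Deacetylases, demethylases and ubiquitin ligases act on the same chromatin, and many of these proteins also serve in meiosis. DOT1L, an enzyme that methylates a lysine in the core of histone H3, is the product of the gene deleted here.

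Single-cell RNA was counted with a droplet 3′ kit in whole dissociated testis. The Dot1L cKO library came from Dot1L fl/delta mice with Ddx4-Cre, and the control library from Dot1L fl/+ mice without Cre. The Ddx4 promoter drives Cre in germ cells, so it was not directed at the somatic cells, which by the labels also carry 1 delta allele. The labels give neither the age nor the number of the animals, and with 1 library per genotype the differences below are between these libraries, have no replicate check and carry no test.

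There were 20601 barcodes with 156518838 UMIs in the cKO library, and 17408 barcodes with 155487418 UMIs in the control library. A UMI is a molecular tag that counts a captured transcript once. After filters 13556 cKO cells and 11151 control cells were kept, and 102 barcode sequences occurred in both libraries. Cells were put into 10 stage windows by their UMIs of listed stage markers, namely spermatogonia, leptotene to zygotene, early pachytene, mid to late pachytene, diplotene to secondary spermatocyte, early round, late round, early elongating, elongating and late elongating. The windows held between 249 and 1219 cKO cells and between 140 and 1345 control cells. Outside all windows were 46.3% of kept cKO cells, with a median of 1661 UMIs, and 38.0% of kept control cells, with a median of 1659. Levels are UMIs per 1000000 UMIs of the window (CPM), 1 count per molecule and not divided by transcript length. Ratios are log2 of cKO over control with exact 95% intervals that cover counting error only. A gene was measured in a window with 50 or more UMIs over both libraries, and 1.5-fold was the rule of size. Dot1l itself had 8.68 CPM in cKO early round cells and 71.1 CPM in control ones, but 58.0 CPM in cKO early pachytene cells and 56.7 CPM in control ones. The labels do not state which part of Dot1l is floxed, so a 3′ count may not see the deletion.

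Stage windows were set without the transition protein and protamine transcripts. In the early round window the late spermatid markers had a median of 19.0 per 10000 UMIs in cKO cells and 20.1 in control cells, and in the elongating window one of 144 in cKO cells and 142 in control cells. The same markers set the limits of these windows. Near medians are thus in part fixed by the limits and do not by themselves show that stages match. The late spermatid medians lay further apart elsewhere. In late elongating cells that median was 296 in cKO cells and 333 in control cells. Round spermatid markers had a median of 4.35 per 10000 in cKO early elongating cells and 2.78 in control ones, and of 2.74 in cKO elongating cells and 1.47 in control ones. In late elongating cells it was 3.80 in cKO and 1.80 in control cells. This order was not particular to elongating cells. The median was 1.96 in cKO and 0.915 in control spermatogonia, and 6.85 in cKO and 2.55 in control Leydig-like cells. In late round cells it was 46.9 in cKO and 47.0 in control cells. What part these differences have in the ratios of genes that are high in round cells, such as Chd5, was not tested. The transition protein and protamine transcripts had a median of 2333 per 10000 UMIs in cKO elongating cells and 3244 in control ones. In early round cells their median was 21.6 per 10000 in cKO cells and 32.8 in control ones. Their share of all UMIs there had the other order, 0.492% in cKO cells and 0.349% in control cells. What part this has in the early round ratios was not tested. Medians of the Leydig, macrophage, mesenchymal, endothelial and erythroid markers were 0 in every germ cell window of both libraries, and the Sertoli median did not pass 0.923 per 10000. When cells were clustered instead, early round cells fell into a shared cluster of 750 cKO and 860 control cells and another of 964 cKO cells and 1 control cell. From late round on the libraries hardly shared a cluster, and the elongating window's clusters were one of 1133 cKO cells with 0 control cells and one of 0 cKO cells with 1472 control cells.

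The promoters of 4 members are shown. Chd5 and Hdac2 had the widest differences towards the cKO library among members with over 200 UMIs in a window, Bcorl1 had the widest towards control, and Phf7 had the highest UMI level. Each sequence is the 250 bases before the gene's start on build GRCm38.p6, from RefSeq, 5′ to 3′ on the gene's strand. Capitals mark TGACGT, searched on both strands and here read as its reverse complement, which is the core of the element bound by the CREB and CREM family of activators.
Chd5, chr4:152338401-152338650, plus strand: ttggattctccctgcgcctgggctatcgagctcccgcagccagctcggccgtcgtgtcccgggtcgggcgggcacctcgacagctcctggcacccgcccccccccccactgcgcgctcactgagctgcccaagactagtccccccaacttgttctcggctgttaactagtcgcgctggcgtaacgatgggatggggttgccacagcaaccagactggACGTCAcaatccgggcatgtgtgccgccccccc
Phf7, chr14:31251316-31251565, minus strand: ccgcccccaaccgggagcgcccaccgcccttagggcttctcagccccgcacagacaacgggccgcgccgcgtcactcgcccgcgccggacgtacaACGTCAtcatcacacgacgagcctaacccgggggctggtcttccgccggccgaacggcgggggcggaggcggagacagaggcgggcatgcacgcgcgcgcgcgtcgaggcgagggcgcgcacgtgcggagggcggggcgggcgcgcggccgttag
Hdac2, chr10:36974294-36974543, plus strand: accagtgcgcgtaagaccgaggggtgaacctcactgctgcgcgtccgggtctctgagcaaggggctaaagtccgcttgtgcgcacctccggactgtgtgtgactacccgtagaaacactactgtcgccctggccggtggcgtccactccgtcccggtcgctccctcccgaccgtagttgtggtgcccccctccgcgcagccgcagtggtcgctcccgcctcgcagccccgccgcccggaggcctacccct
Bcorl1, chrX:48341108-48341357, plus strand: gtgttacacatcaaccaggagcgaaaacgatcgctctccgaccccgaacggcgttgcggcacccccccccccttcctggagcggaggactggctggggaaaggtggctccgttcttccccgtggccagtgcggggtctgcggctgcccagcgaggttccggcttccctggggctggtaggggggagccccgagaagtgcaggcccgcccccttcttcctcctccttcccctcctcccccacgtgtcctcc
The Chd5 match began 33 bases before the start and the Phf7 match 155 bases before it, while the Hdac2 and Bcorl1 windows held none. Promoters were found for 24 of the 30 members, with 34 starts in all, of which 7 held the motif. Those belonged to Chd5, Phf7, Kat5, Kat8, Mdc1 and Top2b. Chd5 was counted 2 times for 1 match, which lies 33 bases before 1 of its starts and 36 bases before the other. The motif occurred in 6.47% of all 32851 promoters listed. A match describes letters and not a binding site.

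Most of the genes were highest before the spermatid stages and ran down through them. In the cKO library 8 of 30 members were highest in spermatogonia, 18 in windows from leptotene to the secondary spermatocyte, 2 in round and 2 in elongating windows. In the control library 7 were highest in spermatogonia, 18 in meiotic, 4 in round and 1 in elongating windows. The window of the highest level was the same in both libraries for 24 members, or 80%, beside 80.8% of 16687 genes with 200 or more UMIs. Of the other 6, Brdt, Kat8, Mdc1, Chd5 and Hdac1 were highest in neighbouring windows, and Trrap in windows 2 apart.

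**Figure D1:**
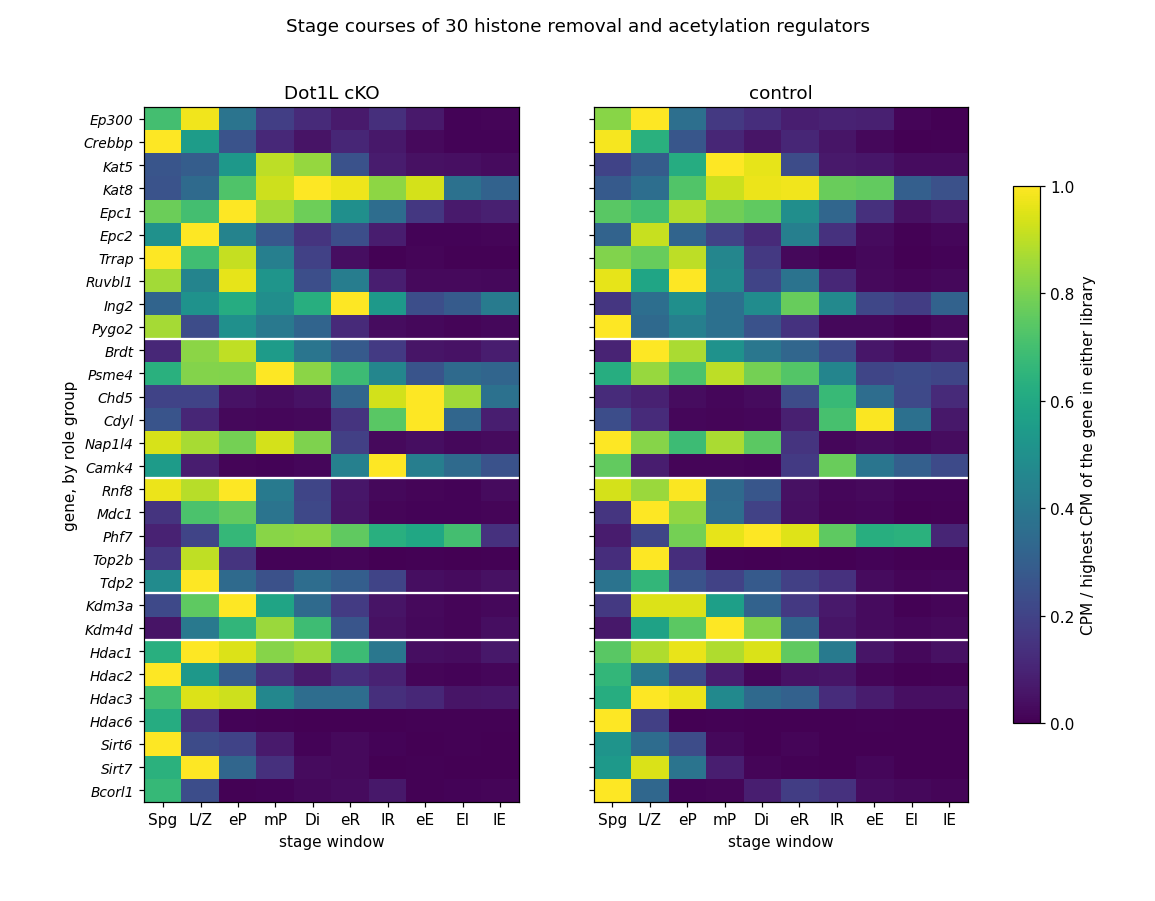
Stage courses of the 30 genes in Dot1L cKO cells (left) and control cells (right). Each row is a gene, ordered by role with white lines between roles. Each column is a stage window (Spg spermatogonia, L/Z leptotene to zygotene, eP early and mP mid to late pachytene, Di diplotene to secondary spermatocyte, eR early round, lR late round, eE early elongating, El elongating, lE late elongating), and colour is the CPM over the gene's highest CPM in either library. In each panel 18 genes are highest in meiotic windows, and Cdyl, Camk4 and Chd5 are bright in spermatids.

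Chd5, Cdyl and Camk4 were the members at their highest in late round or early elongating cells. CHD5 is a chromatin remodeller whose loss in mice impairs the compaction of sperm chromatin. Chd5 had 41.5 CPM in cKO early round cells and 29.8 CPM in control ones, and 119 CPM in cKO late round cells and 85.8 CPM in control ones. After that the libraries parted. Chd5 had 127 CPM (1042 UMIs) in cKO early elongating cells and 45.4 CPM (496 UMIs) in control ones, a log2 ratio of 1.49 (1.33 to 1.64). In the elongating window it had 109 CPM (1366 UMIs) in cKO cells and 27.9 CPM (458 UMIs) in control cells, a log2 ratio of 1.97 (1.81 to 2.12). Late elongating cells held 47.3 CPM in the cKO library and 15.4 CPM in the control library, a log2 ratio of 1.62 (1.29 to 1.95). The control level was highest in late round cells and lower in each window after it, whereas the cKO level did not drop under 100 CPM until the late elongating window.

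These ratios were among the higher ones of genes with at least as many UMIs as Chd5. In the elongating window 2.29% of 1486 such genes had a ratio as high. The share was 2.30% of 1609 in the early elongating window and 3.36% of 2289 in the late elongating one. The median of all measured genes in the elongating window was itself 0.39, and Chd5 stood 1.58 above it. Free RNA, estimated from spermatid markers found in somatic cells, could account for 9.43% of Chd5 UMIs in cKO elongating cells and 19.4% in control ones. In late elongating cells that estimate was 45.0% in the cKO library and 84.4% in the control library. Chd5 was also on the cKO side before the spermatid stages, at few UMIs. It had 25.5 CPM (89 UMIs) in cKO leptotene to zygotene cells and 11.7 CPM (24 UMIs) in control ones, a log2 ratio of 1.12 (0.46 to 1.84), but free RNA could account for 66.8% of them in cKO cells and 89.1% in control cells. In mid to late pachytene it had 4.21 CPM in cKO cells and 2.27 CPM in control cells, with shares of 61.7% in cKO cells and 65.9% in control cells. It had in the diplotene to secondary window 5.995 CPM in cKO and 3.97 CPM in control cells, where free RNA could account for 61.9% of its UMIs in cKO cells and 58.6% in control cells. The somatic pool, which the Cre did not target, had 46.9 CPM of Chd5 in the cKO library and 54.2 CPM in the control library, a log2 ratio of -0.21 (-0.93 to 0.57), with 52.3% of those UMIs in cKO cells and 31.2% in control cells within the free RNA estimate.

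CAMK4, a calcium-dependent kinase that phosphorylates a protamine and is needed for the histone exchange in mice, differed at an earlier point. Camk4 had 104 CPM (2356 UMIs) in cKO early round cells and 40.5 CPM (847 UMIs) in control ones, a log2 ratio of 1.36 (1.25 to 1.48). In late round cells, where it was highest, it had 240.0 CPM in the cKO library and 185 CPM in the control library, a ratio of 0.37. From the early elongating window on its ratios lay between 0.13 and 0.19, within the 1.5-fold rule. In spermatogonia the order was the other way, with 132 CPM in cKO cells and 182 CPM in control cells, a ratio of -0.47 (-0.72 to -0.21). The diplotene to secondary window also passed the rule, at 0.71 (0.20 to 1.22), but at 4.50 CPM in cKO cells and 2.76 CPM in control cells the free RNA estimate covered all of its UMIs.

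CDYL, a chromodomain corepressor with a hydratase domain that removes crotonyl marks from histones, followed the same course one step later. Cdyl had 85.7 CPM (1935 UMIs) in cKO early round cells and 50.2 CPM (1049 UMIs) in control ones, a log2 ratio of 0.77 (0.66 to 0.88). At its highest, in early elongating cells, it had 566 CPM in the cKO library and 563 CPM in the control library, a ratio of 0.01 (-0.05 to 0.06). In elongating cells it had 187 CPM in the cKO library and 209.5 CPM in the control library, a ratio of -0.16, which lies 0.55 under the median of all genes there.

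Both genes climb steeply through the early round window, so its cells were split by late spermatid markers into 3 bins, a step chosen after seeing the data. Camk4 had 21.2 CPM in cKO cells and 6.39 CPM in control cells in the earliest bin, 74.5 CPM in cKO and 20.002 CPM in control cells in the next, and 173 CPM in cKO and 77.4 CPM in control cells in the last. Cdyl had 25.9 CPM in cKO cells and 14.4 CPM in control cells in the earliest bin, 50.8 CPM in cKO and 22.3 CPM in control cells in the next, and 148 CPM in cKO and 95.03 CPM in control cells in the last. Both were thus higher in cKO cells in all 3 bins, and with the bins weighted alike the ratio was 1.37 for Camk4 and 0.77 for Cdyl. The rule that defines the stage mattered for Cdyl. With transition proteins and protamines among the late markers its early round ratio was 0.30, and that of Camk4 was 0.96.

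**Figure D2:**
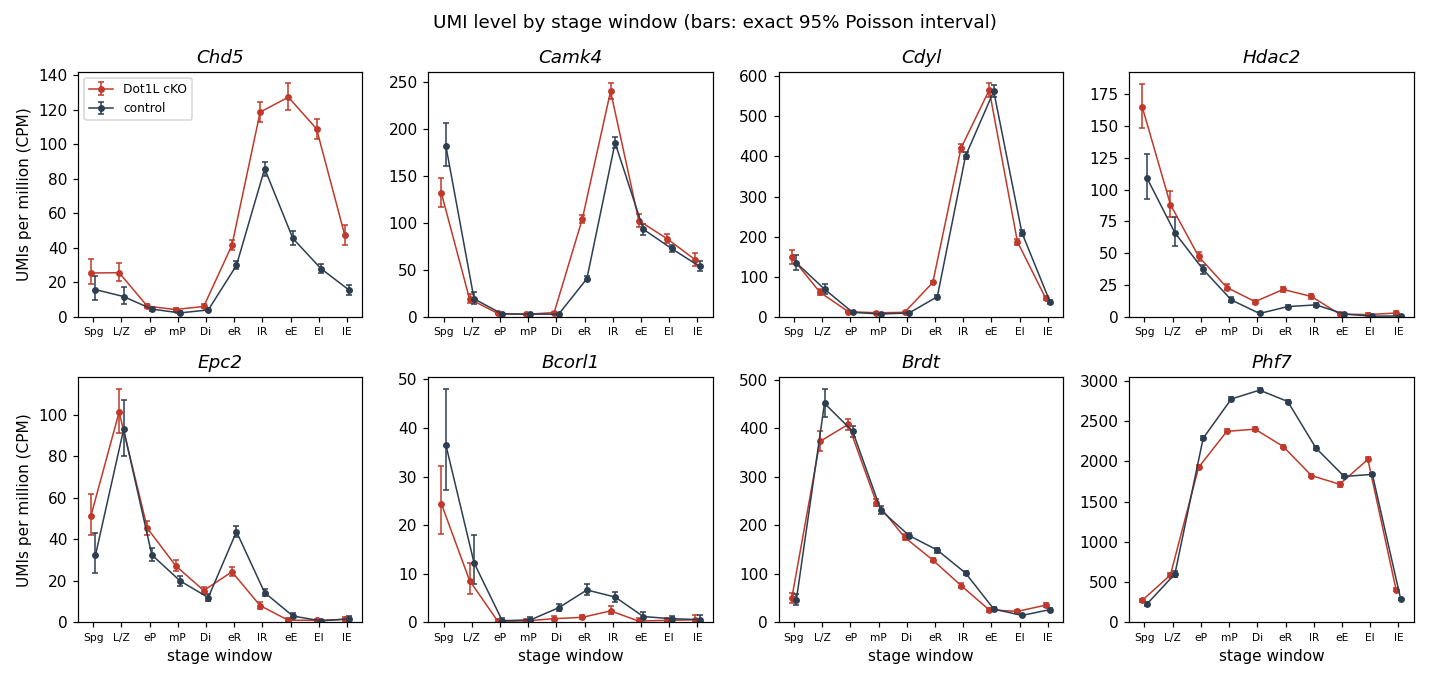
Level of 8 genes by stage window. Points are CPM in the 1 Dot1L cKO library (red) and the 1 control library (dark), bars are exact 95% Poisson intervals for counting error, and window names are as in the plot of stage courses. Chd5 stays at 109 CPM in cKO elongating cells beside 27.9 CPM in control ones, Camk4 and Cdyl are higher in cKO early round cells, and Bcorl1 and Epc2 are lower there.

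The remaining readers and chaperones differed less. BRDT is the testis bromodomain protein that binds acetylated histone H4 and is needed for histone removal. Brdt had 373 CPM in cKO leptotene to zygotene cells and 451 CPM in control ones, and 408 CPM in cKO early pachytene cells and 393 CPM in control ones. It was lower in each later window up to elongating cells in both libraries. In late round cells it had 75.8 CPM in the cKO library and 101 CPM in the control library, a ratio of -0.42 (-0.53 to -0.31). Its ratio of 0.68 in elongating cells came from 22.6 CPM in cKO cells and 14.1 CPM in control cells, which the free RNA estimate covered in both, as it did the 35.3 CPM in cKO late elongating cells and 26.2 CPM in control ones. PSME4, the proteasome activator that recognises acetylated histones, was within the rule in every window up to early elongating. Psme4 had 86.8 CPM in cKO elongating cells and 55.9 CPM in control ones, a ratio of 0.63 (0.51 to 0.76), and in late elongating cells 82.1 CPM in cKO and 52.6 CPM in control cells. Relative to the median of all genes those ratios were 0.24 and 0.22. Free RNA could account for 35.9% of the elongating UMIs in cKO cells and 43.1% in control cells, and for 78.8% of the late elongating ones in cKO cells and all in control cells. Nap1l4, a histone chaperone highest in spermatogonia at 184 CPM in cKO cells and 196 CPM in control cells, passed the rule in no window.

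Among the acetyltransferases and their partners the catalytic genes were alike in both libraries to within the rule in nearly every window. EP300 and its paralog CREBBP acetylate several histones, KAT8 a lysine of H4, and KAT5 is the enzyme of the TIP60 complex, to which EPC1, EPC2, TRRAP and RUVBL1 belong. Ep300, Kat5, Kat8 and Pygo2 passed 1.5-fold in no window in which they were measured. Crebbp, at the highest level of this group, had 374 CPM in cKO spermatogonia and 369.6 CPM in control ones, and in early pachytene 95.6 CPM in cKO and 101 CPM in control cells. It passed the rule in elongating cells, with 54 UMIs in the cKO library and 17 UMIs in the control library, a log2 ratio of 2.06. That ratio was past the rule in 10 of 10 settings that gave a value, but all of those UMIs were within the free RNA estimate. Kat8 stayed at 124 to 149 CPM in cKO cells and 114 to 146 CPM in control cells from mid to late pachytene to early elongating.

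Epc2 was the exception. It had 24.3 CPM (549 UMIs) in cKO early round cells and 43.7 CPM (912 UMIs) in control ones, a log2 ratio of -0.84 (-0.9997 to -0.69). In late round cells it had 8.03 CPM (113 UMIs) in the cKO library and 14.3 CPM (291 UMIs) in the control library, a ratio of -0.83 (-1.16 to -0.51). Before that it was on the other side, at 51.2 CPM in cKO spermatogonia and 32.2 CPM in control ones, a ratio of 0.67 (0.15 to 1.20), and at ratios of 0.36 to 0.48 from early pachytene to the secondary spermatocyte. In the diplotene to secondary window just before, Epc2 had 15.3 CPM in cKO cells and 11.9 CPM in control cells, so both libraries had more Epc2 in early round cells than in the window before, the control library by the larger step. Of 4498 genes with as many UMIs in the early round window 1.04% had a ratio as low. Its paralog Epc1 had 49.96 CPM in cKO early round cells and 49.4 CPM in control ones.

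ING2, a reader of methylated histone H3 found in a deacetylase complex, was on the cKO side in 10 of 10 windows. Ing2 had 86.2 CPM in cKO early round cells, its highest window, and 66.3 CPM in control ones, a ratio of 0.38 (0.28 to 0.48). It passed 1.5-fold in spermatogonia at 58 UMIs in the cKO library and 19 UMIs in the control library, a ratio of 1.03 (0.26 to 1.86), where free RNA could account for 42.5% of its UMIs in cKO cells and 59.6% in control cells. It also passed in elongating cells at 24.9 CPM in the cKO library and 15.6 CPM in the control library, a ratio of 0.67, or 0.28 over the median of all genes, with 38.7% of its UMIs in cKO cells and 40.1% in control cells within the free RNA estimate. Trrap, a scaffold of acetyltransferase complexes, passed the rule in early round cells on 51 UMIs in the cKO library and 28 in the control library, a ratio of 0.75 (0.06 to 1.47). Free RNA could account for 66.0% of those UMIs in cKO cells and 89.8% in control cells, and the ratio was past the rule in 7 of 11 settings and at -0.78 in clusters. Epc1 passed it at 7.25 CPM in cKO elongating cells and 4.62 CPM in control ones, and Ruvbl1, an ATPase of the TIP60 complex, there at 3.51 CPM in cKO and 1.82 CPM in control cells, within the free RNA estimate for both genes. Ruvbl1 counts are uncertain in any case, since 37.4% of its 3′ end is shared with Gm5837; for Kat8 the shared part, with Gm8523, is 9.42%, and no other member shared its end. Pygo2, which is needed for histone H3 acetylation in mouse spermatids, stayed under 20 CPM in every window of both libraries.

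Of the ubiquitin and strand break genes, Phf7 held most of the transcripts of the whole set. PHF7 is a ubiquitin ligase for histone H2A that protects BRDT in early elongating mouse spermatids. Phf7 had 2398 CPM in cKO diplotene to secondary cells and 2883 CPM in control ones, a ratio of -0.27 (-0.28 to -0.25). From early pachytene to late round its ratios ran between -0.33 and -0.23, and in elongating cells it had 2023 CPM in the cKO library and 1837 CPM in the control library, a ratio of 0.14. It passed the rule in no window. In early round cells Phf7 made up 49284 of the 79241 UMIs of all 30 genes in the cKO library and 57283 of 82798 in the control library. There the 30 genes together were 0.351% of UMIs in cKO cells (0.348% to 0.353%, exact Poisson) and 0.396% in control cells (0.394% to 0.399%). Phf7, itself lower in cKO cells there, makes up most of these shares, so their order does not describe the other members.

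RNF8, a ubiquitin ligase recruited to damaged chromatin by the adaptor MDC1, was within the rule in every window in which it was measured. Rnf8 had 83.3 CPM in cKO early pachytene cells and 82.8 CPM in control ones. Mdc1 had 189 CPM in cKO leptotene to zygotene cells and 265 CPM in control ones, a ratio of -0.48 (-0.65 to -0.32), under the rule. Its only value past the rule was in early elongating cells, at 22 UMIs in the cKO library and 52 UMIs in the control library, all within the free RNA estimate. TOP2B is the topoisomerase that cuts DNA in elongating spermatids, and TDP2 frees DNA ends of trapped topoisomerase. Top2b had 186 CPM in cKO leptotene to zygotene cells and 205 CPM in control ones, and later windows held little of it. It passed the rule in mid to late pachytene on 39 UMIs in cKO and 21 UMIs in control cells, a log2 ratio of 0.60 (-0.20 to 1.44). In the diplotene to secondary window it did so on 37 UMIs in cKO and 13 UMIs in control cells, a ratio of 1.65 (0.71 to 2.69), and in the early round window on 60 UMIs in cKO and 27 UMIs in control cells, a ratio of 1.04 (0.36 to 1.75). Free RNA could account for 44.3% of its diplotene to secondary UMIs in cKO cells and 87.8% in control cells, and for 43.8% of its early round UMIs in cKO cells and 57.9% in control cells.

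Tdp2 was on the cKO side in 10 of 10 windows. It had 133 CPM (464 UMIs) in cKO leptotene to zygotene cells and 88.1 CPM (180 UMIs) in control ones, a log2 ratio of 0.60 (0.34 to 0.85). In early round cells it had 39.6 CPM (895 UMIs) in the cKO library and 25.4 CPM (531 UMIs) in the control library, a ratio of 0.64 (0.48 to 0.80). Relative to the median of all genes in that window, 0.12, the early round ratio was 0.52 and under the rule. In elongating and late elongating cells the ratios of 1.24 and 1.20 came from 47 and 33 UMIs in the cKO library and 26 and 18 UMIs in the control library, all within the free RNA estimate. Of the 12 members measured in all 10 windows, Chd5, Ing2, Tdp2 and Epc1 had a ratio above 0 in each, beside 15.3% of 4123 genes. Some Epc1 ratios were close to 0, such as 0.007 (-0.30 to 0.31) in leptotene to zygotene and 0.015 (-0.11 to 0.14) in early round cells. All Epc1 UMIs in elongating and late elongating cells were within the free RNA estimate.

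The demethylases that clear methyl groups from lysine of histone H3 were spermatocyte genes in both libraries. KDM3A activates the transition protein and protamine genes in mice. Kdm3a had 188 CPM in cKO early pachytene cells and 178 CPM in control ones, and in the early round window 32.4 CPM in cKO and 30.9 CPM in control cells. Kdm4d had 125 CPM in cKO mid to late pachytene cells and 147 CPM in control ones, a ratio of -0.24 (-0.33 to -0.15). It was on the control side in 8 of the 9 windows in which it was measured, with ratios of -0.52 to -0.05. The values past the rule were those of Kdm3a in elongating cells, on 30 UMIs in the cKO library and 22 in the control library, and of Kdm4d in late elongating cells, on 31 UMIs in the cKO library and 25 in the control library, each within the free RNA estimate.

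Among the deacetylases and corepressors Hdac2 and Bcorl1 stood apart. HDAC1 and HDAC2 are paralogous deacetylases of the same corepressor complexes. Hdac2 had 165 CPM (345 UMIs) in cKO spermatogonia and 109.6 CPM (153 UMIs) in control ones, a log2 ratio of 0.59 (0.31 to 0.88). It ran down through meiosis in both libraries, to 11.9 CPM (223 UMIs) in cKO diplotene to secondary cells and 2.61 CPM (54 UMIs) in control ones, a ratio of 2.19 (1.76 to 2.65). In early round cells it had 21.5 CPM (486 UMIs) in the cKO library and 8.04 CPM (168 UMIs) in the control library, a ratio of 1.42 (1.16 to 1.68), and in the late round window 16.0 CPM in cKO and 9.37 CPM in control cells, a ratio of 0.77 (0.49 to 1.06). Hdac2 was thus higher in cKO cells in each of the 7 windows in which it was measured, and past the rule in 5 of them. Its spermatogonia ratio was under the rule without the 50 most abundant genes and with doublets kept, with 0.55 as the lowest. Of 8527 genes with as many UMIs in the diplotene to secondary window 0.528% had a ratio as high.

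Hdac2 did not climb with the late markers inside the early round window. It had 25.9, 21.8 and 19.1 CPM over the 3 bins in cKO cells and 8.53, 7.81 and 8.03 CPM in control cells. Free RNA could account for 13.9% of its UMIs in cKO diplotene to secondary cells and 30.6% in control ones, and for 10.3% in cKO early round cells and 13.5% in control ones. In somatic cells, where the Cre was not directed, Hdac2 had 37 UMIs in the cKO library and 4 UMIs in the control library, too few to count as measured, a ratio of 1.24 (-0.23 to 3.19). Free RNA could account for 44.9% of those UMIs in cKO cells and 56.4% in control cells. Hdac1, at the highest level of this group, had 208 CPM in cKO leptotene to zygotene cells and 183 CPM in control ones, and stayed within the rule up to late round cells. Its ratios of -0.63 in early elongating and 0.75 in elongating cells rested on 61 and 87 UMIs in the cKO library and 126 and 68 UMIs in the control library, all within the free RNA estimate.

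BCORL1, a corepressor that binds deacetylases, is encoded on the X chromosome, which is silenced in spermatocytes. Bcorl1 had 24.4 CPM in cKO spermatogonia and 36.5 CPM in control ones, from 51 UMIs in each. In early round cells it had 1.02 CPM (23 UMIs) in the cKO library and 6.65 CPM (139 UMIs) in the control library, a log2 ratio of -2.71 (-3.41 to -2.06). In the diplotene to secondary window the ratio was -2.001 (-2.95 to -1.15) on 14 UMIs in cKO cells and 62 UMIs in control cells, and in late round cells -1.15 (-1.76 to -0.57) on 33 UMIs in cKO cells and 106 UMIs in control cells. With narrower stage windows the late round ratio was -0.54, within the rule. The 3 early round bins held 4, 6 and 13 UMIs in cKO cells and 49, 51 and 39 UMIs in control cells. The order of the libraries was thus the same in each bin, and the gap was narrowest in the last.

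Other X-linked genes were also lower in many cases in early round cells. Of 387 X-linked genes measured in early round cells 27.4% were past 1.5-fold lower in cKO cells, beside 6.14% of all genes, and 18.6% past 1.5-fold higher, beside 23.7%, with a median of -0.08. Of 11015 genes with as many UMIs as Bcorl1 there, 16 genes, or 0.145%, had a ratio as low. In late round cells 22.1% of X-linked genes were past 1.5-fold lower, beside 8.72% of all genes, and 17% higher, beside 17%. In the diplotene to secondary window 12.7% were lower, beside 4.92%, and 20.4% higher, beside 15.3%. In early pachytene 1.08% of only 93 X-linked genes measured were lower, beside 2.71%, and 58.1% higher, beside 8.43%. In mid to late pachytene 0.82% of 122 were lower, beside 3.96%, and 48.4% higher, beside 12.2%. X-linked genes held just 0.0933% of UMIs in cKO early pachytene cells and 0.0621% in control ones. What part of these UMIs is free RNA was not tested. In spermatogonia 5.56% of X-linked genes were lower, beside 3.85%, and 4.86% higher, beside 9.01%. Hdac6, a deacetylase of tubulin that is also X-linked, had 87.6 CPM (183 UMIs) in cKO spermatogonia and 141 CPM (197 UMIs) in control ones, a ratio of -0.69 (-0.99 to -0.39). Sirt7, a deacetylase that needs NAD, had 6.28 CPM (109 UMIs) in cKO mid to late pachytene cells and 3.75 CPM (53 UMIs) in control ones, a ratio of 0.74 (0.26 to 1.25), and at its highest, in leptotene to zygotene, 45.0 CPM in cKO and 42.6 CPM in control cells. Hdac3 passed the rule in no window. Sirt6 was measured in early pachytene alone, at 35 UMIs in the cKO library and 36 UMIs in the control library, with a ratio of -0.21.

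**Figure D3:**
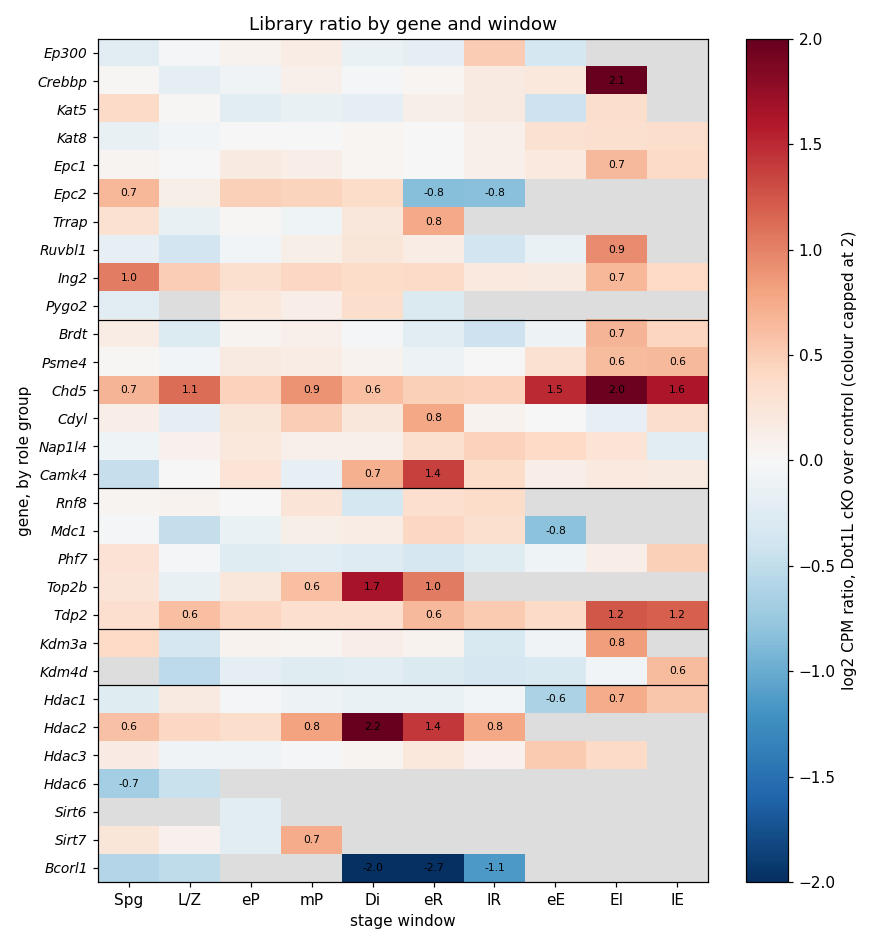
Log2 ratio of CPM, Dot1L cKO over control, for each gene (rows, grouped by role with black lines) and stage window (columns, named as in the plot of stage courses). Red is higher in cKO cells, blue lower, colour is capped at 2, grey cells had under 50 UMIs over both libraries, and printed values are those past 1.5-fold. The row of Chd5 is red throughout, that of Hdac2 in the 7 windows where it was measured, Bcorl1 is blue wherever it was measured, and Epc2 turns blue in the early and late round windows.

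The share of the 30 genes past the rule was near or under that of all genes in most windows. In early round cells 6 of 27 measured members were past 1.5-fold higher in cKO cells, beside 23.7% of 14508 genes, and 2 were lower, beside 6.14%. Relative to the median of all genes there 5 were higher, beside 19.3%, and 2 were lower, beside 8.83%. In late round cells 1 of 24 was higher, beside 17% of genes, and 2 were lower, beside 8.72%. In early elongating cells 1 of 20 was higher, beside 15.6%, and 2 were lower, beside 10.3%. In the diplotene to secondary window 4 of 27 were higher, beside 15.3%, and 1 was lower, beside 4.92%.

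The elongating windows differed as a whole. The transition protein and protamine transcripts took 23.3% of UMIs in cKO elongating cells and 31.9% in control ones, and their part in the ratios of other genes was not tested. There 10 of 18 measured members were past 1.5-fold higher, beside 35.6% of genes, and 0 were lower, beside 4.72%. Relative to the median of all genes, 0.39, the count was 3 higher (Chd5, and Crebbp and Tdp2 within the free RNA estimate), beside 16.5%, and 0 lower, beside 12.7%. In late elongating cells, where the median was 0.43, 4 of 13 were higher, beside 37.7%, and 0 lower, beside 3.61%. Relative to that median 2 were higher (Chd5, and Tdp2 within the free RNA estimate), beside 14.5%, and 1 (Nap1l4) was lower, beside 13%.

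In spermatogonia 4 of 28 were higher in cKO cells, beside 9.01% of genes, and 1 was lower, beside 3.85%. In the leptotene to zygotene window the counts were 2 of 28 higher, beside 7.27%, and 0 lower, beside 4.09%. In early pachytene they were 0 of 28 higher, beside 8.43%, and 0 lower, beside 2.71%. In mid to late pachytene 4 of 27 were higher, beside 12.2%, and 0 lower, beside 3.96%. Over all windows 44 of 240 measured values passed the rule, in 21 members, and 30 of the 44 rested on 100 or more UMIs, in 14 members.

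**Figure D4:**
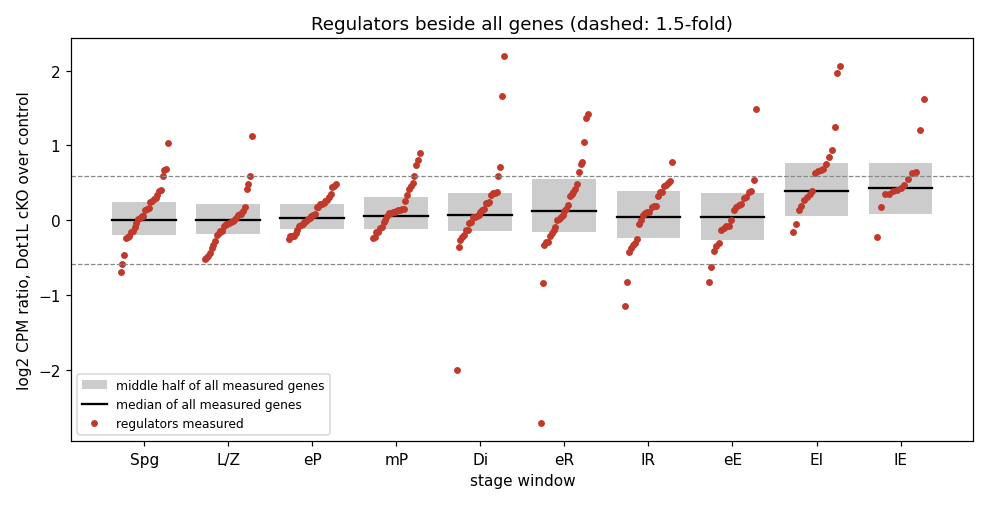
Log2 ratio of CPM, Dot1L cKO over control, of each measured member (red points, sorted within a window) beside all measured genes (grey box from the lower to the upper quartile, black line at the median) in each stage window. Dashed lines mark 1.5-fold. Most points fall in or near the grey boxes, and the medians of all genes move up to 0.39 in the elongating and 0.43 in the late elongating window.

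Cells outside the target of the Cre were a pool of 351 cKO and 94 control Leydig-like, macrophage-like and mesenchymal-like cells. By the spermatid markers found in them, free RNA could account for 45.8% of the pool's UMIs in the cKO library and 52.2% in the control library, so levels there are not those of somatic cells alone. Of 17 members measured there 2 were past 1.5-fold higher in cKO cells, beside 15.5% of genes, and 2 lower, beside 9.1%. The higher ones were Brdt, a germ cell gene, at 64.1 CPM in the cKO library and 33.6 CPM in the control library, and Kat8 at 62.8 CPM in cKO and 38.7 CPM in control cells. The lower ones were Ruvbl1 at 30.4 CPM in cKO and 54.2 CPM in control cells and Top2b at 37.7 CPM in cKO and 64.5 CPM in control cells. Cdyl had 135 CPM in cKO somatic cells and 137 CPM in control ones, Camk4 had 43.6 CPM in cKO and 54.2 CPM in control cells, and Epc2 had 44.9 CPM in cKO and 49.0 CPM in control cells. Free RNA could account for all of the Brdt UMIs in both libraries, and for 82.8% of those of Kat8 in cKO cells and all in control cells. For Cdyl the share was 53.1% in cKO cells and 65.4% in control cells, for Camk4 81.6% in cKO cells and 63.2% in control cells, and for Epc2 22.3% in cKO cells and 21.0% in control cells. For Ruvbl1 it was 71.8% in cKO cells and 38.6% in control cells, and for Top2b 15.4% in cKO cells and 6.22% in control cells.

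A further 95 genes of the same pathways were listed from textbook knowledge, with earlier results of these data known. In early round cells 17 of the 85 measured were past 1.5-fold higher in cKO cells, beside 23.7% of all genes, and 4 lower, beside 6.14%, with a median of 0.05 beside 0.12 for all genes. The highest of those with 100 or more UMIs was Anp32b, an acidic histone chaperone, at 9.61 CPM in cKO cells and 1.63 CPM in control cells. Kansl2, a subunit of a KAT8 complex, had 5.31 CPM in cKO and 1.10 CPM in control cells. Of the TIP60 complex subunits Morf4l2, which is also X-linked, had 52.0 CPM in cKO cells and 18.9 CPM in control cells. Mrgbp had 21.9 CPM in cKO and 8.85 CPM in control cells. The lowest were the X-linked deacetylase Hdac8, at 1.28 CPM in cKO cells and 8.52 CPM in control cells, and the X-linked Ube2a, a conjugating enzyme for ubiquitin on histone H2B, at 29.5 CPM in cKO and 87.1 CPM in control cells. Msl2, of another KAT8 complex, had 4.34 CPM in cKO and 7.04 CPM in control cells, and Jmjd1c, a relative of KDM3A, 22.2 CPM in cKO and 34.0 CPM in control cells.

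In late round cells 8 of the 76 measured pathway genes were past 1.5-fold higher, beside 17% of all genes, and 2 lower, beside 8.72%. Mrgbp, at 24.3 CPM in cKO cells and 7.70 CPM in control cells, and Morf4l2, at 29.8 CPM in cKO and 11.9 CPM in control cells, were the highest there. The ubiquitin ligase Rnf168 followed at 61.8 CPM in cKO and 34.8 CPM in control cells, and the corepressor Sin3a at 6.54 CPM in cKO and 3.73 CPM in control cells. The lowest were Rnf40, a ligase for histone H2B, at 4.34 CPM in cKO cells and 7.80 CPM in control cells, and Ube2a at 107 CPM in cKO and 169 CPM in control cells. Cdyl2 had 11.4 CPM in cKO and 16.8 CPM in control cells and Actl6a, an actin-related subunit, 65.9 CPM in cKO and 96.5 CPM in control cells, both within the rule.

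In elongating cells 25 of 60 were past 1.5-fold higher, beside 35.6% of all genes, and 1 lower, beside 4.72%. Relative to the median of all genes 8 were higher, beside 16.5%, and 5 lower, beside 12.7%. Mrgbp had 12.99 CPM in cKO cells and 4.07 CPM in control cells, a log2 ratio of 1.67, and the bromodomain gene Brd7 had 12.99 CPM in cKO and 4.99 CPM in control cells. Rnf168 had 5.74 CPM in cKO and 2.68 CPM in control cells and the chaperone Nap1l1 31.6 CPM in cKO and 16.2 CPM in control cells. The lowest ratios were within the rule. Kansl1 had 29.6 CPM in cKO cells and 43.7 CPM in control cells, and Sirt2 had 87.9 CPM in cKO and 113 CPM in control cells. Hdac9 had 44.2 CPM in cKO and 53.8 CPM in control cells and Msl3 4.22 CPM in cKO and 4.56 CPM in control cells. Relative to the median of all genes the ratios of Kansl1, Sirt2 and Hdac9 were -0.95, -0.75 and -0.67, past the rule, and that of Msl3 was -0.499. Mrgbp was thus among the 4 highest of the pathway genes in the early round, late round and elongating windows alike. In early elongating cells 6 of 68 pathway genes were higher, beside 15.6% of all genes, and 9 lower, beside 10.3%. In late elongating cells 20 of 46 were higher, beside 37.7%, and 0 lower, beside 3.61%. In the 5 windows before the spermatids 4 to 10 of the 81 to 86 measured were higher, beside 7.27% to 15.3% of all genes, and 0 to 3 lower, beside 2.71% to 4.92%.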

How the data were processed

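Whole testis was profiled with a 10x 3′ kit in 1 Dot1L cKO and 1 control library. Per the file headers, Cell Ranger 7.0.0 produced the deposited UMI counts. The submitters' processing notes name the build mm10 and Seurat 4.1.0. Whether intronic reads and strand were used in counting is not given in the sources used here. The 30 genes and all lists were chosen with earlier results of these data known.

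Cells needed at least 1000 UMIs from at least 300 genes, and no more than 10% of UMIs could be mitochondrial. Doublet scores over 0.2, a threshold set after seeing the scores, removed 528 cKO cells (3.75%) and 395 control cells (3.42%). Of simulated doublets 29.7% in the cKO and 37.1% in the control library passed that score, so doublets may remain. No cell annotation was used here. Windows were cut by UMIs of marker lists per 10000 UMIs, with limits set after seeing their distributions, so a window is a range and not a cell type. They further needed 5000 UMIs, or 3000 in the spermatogonia, leptotene to zygotene and elongating windows, with no such limit in the late elongating one. Near a limit, within 20% of it, lay 18 to 836 cells of a window and library, and 805 of 1219 cKO and 836 of 1276 control elongating cells. UMIs were summed per window and library and divided by the window total. A fold has an exact interval from the 2 counts. Free RNA was taken as 1974 UMIs per cKO cell and 2151 per control cell, and the free RNA estimate for a gene is its share of the library's total. The estimate was capped at all of a gene's UMIs in the window. Promoters are from RefSeq.

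Named are members with 100 or more UMIs and past 1.5-fold in a window, those at the highest CPM of their role group, and up to 4 pathway genes on each side in 3 windows; other values past the rule were named after they were seen. Gene ends were compared in GENCODE vM21 by 40-base words over the last 400 bases. Exons of another gene lie on the opposite strand there for Kat5, Kat8 and Top2b. The ratio and its interval were tested on simulated data with known folds. Alternatives were other scalings, count, UMI and mitochondrial limits, doublets kept, narrower windows, clusters (Leiden, resolution 1, scanpy 1.11.5), late markers with transition proteins and protamines, and free RNA subtracted.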

Additional observations from a re-analysis of the deposited data

How the results depend on the processing

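With 1 library per genotype no replicate could be left out. No paired analysis was possible because each genotype has 1 library. Counts of members past 1.5-fold were small, so many moved by over 1.5 times. Counting spermatogonia to late elongating windows in order, the numbers higher in cKO cells in the report were 4, 2, 0, 4, 4, 6, 1, 1, 10 and 4. In spermatogonia the number was 1 with a limit of 200 UMIs and with 5% mitochondrial UMIs, and 2 with doublets kept and with free RNA subtracted. In leptotene to zygotene it was 1 without the 50 most abundant genes, with 200 UMIs, with 5% mitochondrial UMIs and with free RNA subtracted. Early pachytene had 1 with a limit of 20 UMIs. With 200 UMIs mid to late pachytene and diplotene had 1 each, and with free RNA subtracted 2 and 1. Late round cells had 2 in narrow windows, 5 in clusters and 2 with the transition proteins and protamines among the late markers. Early elongating cells had 4 with doublets kept, 9 in clusters, 2 with those late markers and 2 with free RNA subtracted. Elongating cells had 3 with median-of-ratios scaling, 5 without the 50 genes, 4 with 200 UMIs, 4 in narrow windows and 3 with free RNA subtracted. Late elongating cells had 2 with median-of-ratios scaling, 2 without the 50 genes, 7 with 20 UMIs, 2 with 200 UMIs and 1 with free RNA subtracted. On the lower side spermatogonia, 1 in the report, had 2 without the 50 genes, with 5% mitochondrial UMIs, with doublets kept, in narrow windows, in clusters and with free RNA subtracted. Leptotene to zygotene, 0 in the report, had 1 with 5% mitochondrial UMIs, in clusters and with free RNA subtracted. Diplotene, 1 in the report, had 0 with 200 UMIs, in narrow windows and in clusters. Early round cells, 2 in the report, had 1 with 200 UMIs and 9 in clusters. Late round cells, also 2, had 1 with 200 UMIs, 1 in narrow windows, 6 in clusters and 4 with those late markers. Early elongating cells, also 2, had 6 with 20 UMIs, 0 with 200 UMIs, in narrow windows, in clusters and with those late markers, and 1 with doublets kept and with free RNA subtracted. Elongating cells, 0 in the report, had 1 with 20 UMIs, and late elongating cells, also 0, had 1 with median-of-ratios scaling. In 3 values the direction turned. Trrap in early round cells was at -0.78 in clusters, against 0.75 in the report. Hdac1 in early elongating cells was at 1.85 in clusters, against -0.63. Mdc1 in early elongating cells was at 0.065 with doublets kept, against -0.83. Where a cause is not given by the setting itself, the cause was not tested. Of the 30 values past the rule on 100 or more UMIs, 15 stayed past it in every setting that gave a value. In clusters the early round ratio was 4.25 for Camk4 and 2.68 for Cdyl, with early round cells of the control library nearly all in 1 of 2 clusters.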
